A study of Mus musculus with 6 samples.

Results

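The 8 genes described here encode adhesion G protein-coupled receptors, a family of cell surface receptors. They are Gpr126, Eltd1, Gpr56, Gpr116, Gpr124, Cd97, Lphn1 and Lphn2, and they were taken by symbol from a table of 38918 genes, in which each had 1 row. The set was chosen by family name with earlier results of these data known, among them the FPKM difference between genotypes that put Gpr126 among the lower genes. Values of the 8 are therefore a description, and their p-values come from a fit over all genes and are no independent support. All 8 were above the minimum of a mean of 1 FPKM over the 6 libraries (FPKM, fragments scaled to transcript length and to the mapped fragments of the library), which left 12988 genes to test.

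Adhesion receptors carry a long extracellular part that binds matrix or other cells, joined to a membrane-spanning part that couples to G proteins. Most cut themselves next to the membrane, and the short stretch freed by the cut acts as a tethered agonist. In vessels and in the heart several members mark endothelial cells, and Gpr126 is known from the endocardium, the inner lining of the heart, where the growth of the muscular ridges called trabeculae depends on signals between endocardium and myocardium.

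Whole hearts of C57/BL6 mouse embryos at embryonic day 11.5 were compared between 3 control libraries (Tie2 flox/wild-type, with no Cre named) and 3 mutant libraries (Nfatc1Cre:Tie2 flox/flox). Tie2 is the angiopoietin receptor, encoded by Tek. Cre driven from Nfatc1 acts in the endocardial lineage, so that other endothelial cells can keep Tie2. With no Cre named for the controls, the presence of Cre and the loss of Tek cannot be told apart here. The text of the series gives 18 hearts per genotype, pooled before being split into the replicates, so p-values measure only the spread between libraries, which may be technical. Libraries of 1 genotype differed in Y-linked and hepatocyte transcripts, as given beside the other values of the series, which aliquots of 1 pool would share, so what a replicate stands for is uncertain. The comparison addresses which transcripts differ when Tie2 is lost from the endocardium.

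Tek stood at 22.4, 25.7 and 16.6 FPKM in the control libraries and at 3.38, 3.13 and 3.13 FPKM in the mutant libraries, and the groups did not overlap. Each library held between 12647 and 13041 genes at 1 FPKM or more. The table gives no read counts, and absolute depth is unknown. Low values pile up at fixed ratios between libraries where whole reads are counted, and both replicate 1 libraries stood apart in this respect. In pairs without a replicate 1 library, 6.98% to 17.2% of genes lay at the most common ratio. In pairs of a replicate 1 library with a library of another number, 1.17% to 1.34% did. The pair of both replicate 1 libraries lay between, at 3.28%. Summed Y-linked transcripts lay between 29.6 and 65.0 FPKM in controls and between 54.9 and 82.1 FPKM in mutants. Of the cardiomyocyte markers, led by Myl2 and Actc1, the sum lay between 20297 and 21464 FPKM in controls, and it was 13897, 21732 and 20192 FPKM in mutant replicates 1, 2 and 3, so heart muscle transcripts were abundant in all 6 libraries.

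Gpr126 was the member that differed between the genotypes. The gene, now named Adgrg6 (ENSMUSG00000039116), is protein coding and lies on the minus strand of chromosome 10 from 14402583 to 14545659 (GRCm38), and its longest annotated transcript has 25 exons. Its receptor binds type IV collagen, the prion protein and laminin alpha 2, and raises cyclic AMP through the stimulatory G protein. Control libraries stood at 14.9, 17.3 and 15.4 FPKM, and mutant libraries at 6.39, 8.05 and 7.77 FPKM. Every mutant library lay below every control library. The group levels were 15.9 ± 1.26 FPKM in controls and 7.41 ± 0.890 FPKM in mutants (SD, n = 3 each), a 2.15-fold lower mean. On the scale of log2(FPKM + 1) the difference, mutant minus control, was -1.01 ± 0.11 (SE, limma adjusted p = 0.0245).

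**Figure D1:**
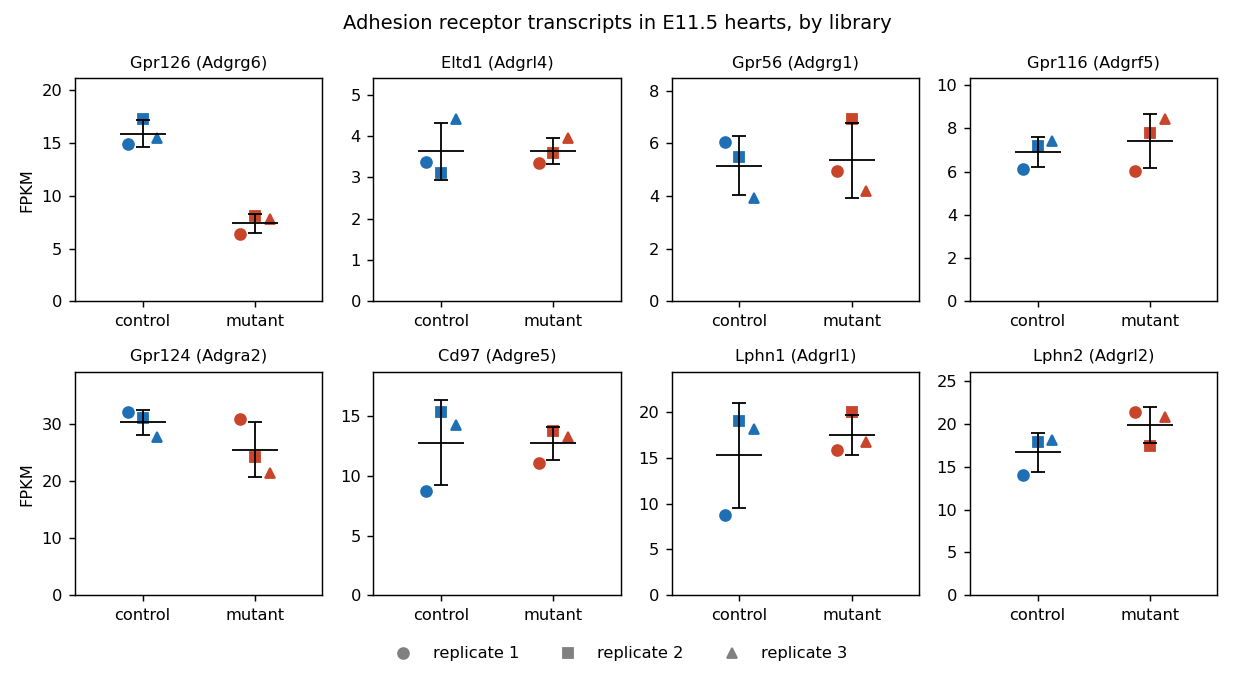
FPKM of the 8 adhesion receptor genes (vertical axes, each from 0) in control and mutant hearts. Each point is 1 library, its shape gives the replicate number, and the black line and bar give the mean and SD of 3 libraries. For Gpr126 the mutant points (6.39 to 8.05 FPKM) lie below all control points (14.9 to 17.3 FPKM), whereas in the other 7 panels the groups overlap.

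Among the 8 members 1 was called lower and 0 higher, where 0.123% of all genes tested were called lower and 0.0539% higher. At an unadjusted p under 0.05, which 4.37% of all genes tested reached as lower and 2.31% as higher, limma gave Gpr126 alone, and Gpr124 joined it in 4 alternatives. The mutant libraries lay wholly below the controls for 1 member and wholly above them for 0, against 8.17% and 5.23% of all genes tested. By p-value Gpr126 was number 18 of the 12988 genes tested, and 58 of them had a more negative log2 difference. The size of the Gpr126 difference held in each alternative, with log2 values from -1.10 to -0.92, while the call did not. Leaving out any 1 library ended it, with limma adjusted p = 0.0671, 0.171 and 0.0974 for control libraries 1, 2 and 3 and 0.0644, 0.0768 and 0.122 for mutant libraries 1, 2 and 3. It was also lost within replicates 2 and 3 (limma adjusted p = 0.0622), with no filter on low values (0.104) and in a fit that carried the Y-linked level as a term (0.287, the highest of the 16 alternatives). The adjusted p was lowest with a term for replicate 1 against the rest (0.00941). In bulk hearts, fewer Gpr126-bearing cells and less Gpr126 RNA per cell cannot be told apart.

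**Figure D2:**
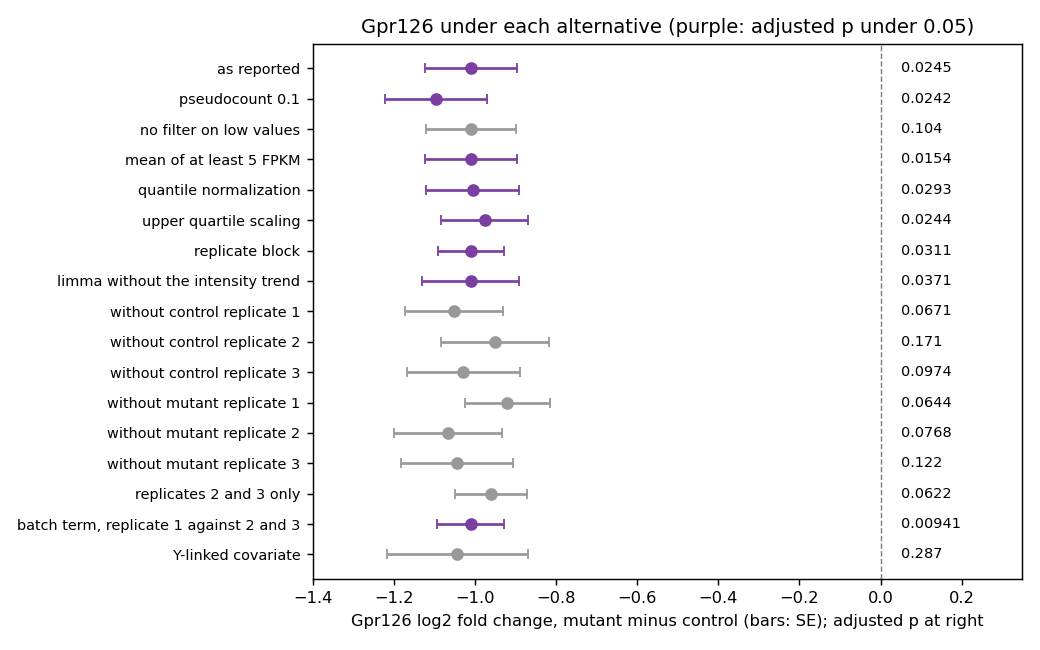
Log2 fold change of Gpr126 (horizontal axis, mutant minus control, of FPKM + 1, bars SE) as reported and under each of 16 alternatives of processing, with the limma adjusted p printed at the right. All values lie between -1.10 and -0.92, and the adjusted p runs from 0.00941 to 0.287, with points in purple where it is under 0.05.

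Eltd1 and Gpr116, both receptors of vascular endothelium, gave no such difference. Eltd1, now Adgrl4, lies on chromosome 3 from 151437887 to 151545086 and has been described in angiogenic vessels. It stood at 3.36, 3.10 and 4.43 FPKM in control libraries and at 3.35, 3.60 and 3.96 FPKM in mutant libraries. The 3 mutant values lay inside the range of the controls, and the group means were 3.63 ± 0.702 and 3.64 ± 0.311 FPKM (SD, n = 3 each). The log2 difference was 0.01 (95% interval -0.31 to 0.33, limma adjusted p = 0.994). Gpr116, now Adgrf5, lies on chromosome 17 from 43360451 to 43459557 and is also known for its control of surfactant in the lung. Its libraries read 6.11, 7.21 and 7.41 FPKM in controls against 6.04, 7.80 and 8.45 FPKM in mutants. Replicate 1 was the lowest in both groups, and the mutant values lay on both sides of the controls, 1 below all of them and 2 above all of them. The log2 difference was 0.09 (95% interval -0.24 to 0.41, limma adjusted p = 0.919). Neither interval reaches the Gpr126 estimate, and a p past the threshold in 1 gene and not in another is no test between them.

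The level of Gpr126 came down to that of Gpr116. The ratio of Gpr126 to Gpr116 was 2.44, 2.40 and 2.08 in control replicates 1, 2 and 3 and 1.06, 1.03 and 0.920 in mutant replicates 1, 2 and 3. Both genes were thus near the same level per transcript length in mutant hearts, and Gpr126 was at least 2.08 times Gpr116 in each control. The ratio of Gpr126 to Eltd1 was 4.51 ± 1.05 in controls and 2.04 ± 0.177 in mutants (SD, n = 3 each). These ratios were chosen after the values were seen and were not tested.

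The short sequences here set the start of Gpr126 beside those of the 2 endothelial members that did not follow it. RefSeq start sites on GRCm38.p6 were found for 6 of the 8 members, with no entry used for Gpr124 and Cd97. Each line gives 30 bases, 5′ to 3′ on the strand of the gene, around the match to GGAA, the core letters bound by ETS factors, on either strand that lies nearest the start, with the match in capitals.
Gpr126 (chr10:14545059-14545088, minus strand): cgagcagctgccgGGAAaccctatgaactc
Eltd1 (chr3:151437860-151437889, plus strand): gaaagtgacaggaGGAAgctgtgcgtcaca
Gpr116 (chr17:43360410-43360439, plus strand): ggcccggaggtctGGAAgcccagtgtgagc
The match begins 39, 9 and 8 bases upstream of the RefSeq start of Gpr126, Eltd1 and Gpr116, where the first of 2 RefSeq starts was taken for Gpr116. The Gpr126 stretch lies in an annotated 5′ UTR exon of a GENCODE transcript, and the GENCODE start of the gene is 623 bases upstream of the RefSeq start.

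In the window from 250 bases before to 50 bases after the start, Gpr126 held 1 such match, Eltd1 4 and Gpr116 7, and 96.0% of 32851 windows of the same length held at least 1 (median 3). The single Gpr126 match is also its single match to GGAAA, the core letters of NFAT factors, which contain GGAA. Eltd1 and Gpr116 held 1 GGAAA match each, and 61.3% of the windows held at least 1. None of these 3 windows held the forkhead letters TGTTTNC, present in 20.5% of windows. CACCC, bound by KLF factors, was found once in Gpr126 and Eltd1 and not in Gpr116 (57.5% of windows), and GATAA, bound by GATA factors, once in Gpr116 alone of the 3 (25.4%). Of these 3 windows, that of Gpr126 held the most CpG dinucleotides, with 38 CpG and 69.0% G or C. Eltd1 and Gpr116 held 8 CpG each, with 58.7% and 54.3% G or C, and the median over all windows was 7 CpG. This was not particular to Gpr126, as the window of Lphn1, which was not called, held 28 CpG and 70.0% G or C. The second RefSeq start of Gpr116, 29015 bases from the GENCODE start, differed, with 1 forkhead match, 3 to GGAAA, 5 to GGAA and 0 to GATAA. Each search covered both strands, matches of letters are a description, and binding was not measured.

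Gpr124 was the most abundant member. It is now named Adgra2 (chromosome 8 from 27085583 to 27123436) and works with the membrane protein Reck in Wnt7 signalling to brain vessels, and it is also carried by mural cells. Control libraries stood at 32.1, 31.1 and 27.8 FPKM and mutant libraries at 31.0, 24.2 and 21.4 FPKM. Mutant replicate 1 lay among the controls while the other mutant libraries lay below them, so the groups overlapped, and within each replicate number the mutant library was the lower. The log2 difference was -0.25 (95% interval -0.59 to 0.09, limma adjusted p = 0.802), and it was -0.39 without mutant replicate 1 (limma adjusted p = 0.695) and -0.029 with the Y-linked term. With the replicate block (limma adjusted p = 0.407) and with the term for replicate 1 against the rest (0.424), as without mutant replicate 1 and within replicates 2 and 3, the unadjusted p was under 0.05. Summed over 7 markers of mural cells, mutant replicate 1 stood at 73.1 FPKM against 50.1 and 51.5 FPKM in the other mutants and 50.2 to 65.7 FPKM in controls. Rgs5 (21.6 FPKM in that library against 5.65 and 5.83 FPKM in the other mutants) and Notch3 (9.35 against 4.33 and 4.24 FPKM) carried most of it, while Abcc9, Cspg4 and Anpep had their lowest mutant value there, so the list did not move together. Of these 7 genes limma called 0, with Abcc9 at 19.8 ± 0.901 and 21.3 ± 2.18 FPKM and Pdgfrb at 11.8 ± 3.02 and 10.9 ± 2.29 FPKM in controls and mutants (SD, n = 3 each), and 1 lay under an unadjusted p of 0.05. Their part in the Gpr124 values was not tested.

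The receptors Gpr56 and Cd97 are known from blood cells among other tissues. Gpr56, now Adgrg1 (chromosome 8 from 94974751 to 95014217), binds type III collagen and transglutaminase 2. Its libraries read 6.06, 5.48 and 3.93 FPKM in controls against 4.95, 6.93 and 4.19 FPKM in mutants. Replicate 3 was the lowest in each group, and the spread within a group exceeded the difference of the means (5.16 ± 1.10 and 5.36 ± 1.42 FPKM, SD, n = 3 each). Cd97, now Adgre5 (chromosome 8 from 83723251 to 83741326), binds Cd55 and Thy1 on other cells. Cd97 read 8.71, 15.3 and 14.3 FPKM in the control libraries and 11.1, 13.8 and 13.3 FPKM in the mutant libraries, with replicate 1 the lowest in both groups. Its log2 difference was 0.03 (95% interval -0.45 to 0.50, limma adjusted p = 0.990), and -0.21 without control replicate 1. The gene overlaps Ddx39 on the other strand, which was at 41.4 FPKM in control replicate 1 and no lower than 26.1 FPKM elsewhere, and whether strand was used in counting is unknown, so reads of the 2 genes cannot be told apart where they overlap. The same limit holds for other members that overlap a gene on the other strand. Among such genes were Brf2 for Gpr124 (5.14 to 7.22 FPKM), Gm10644 for Lphn1 (0.874 to 1.95 FPKM) and Gm10335 for Gpr126 (0.268 to 1.07 FPKM).

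Of 10 markers of macrophages and other white cells 6 were tested, and all 6 had log2 differences above 0, with a median of 0.29. The sum over all 10 was 17.3 to 21.4 FPKM in controls and 23.6 to 27.6 FPKM in mutants, which did not overlap. Itgam, under the minimum level, went the other way, with 0.423 ± 0.0805 and 0.313 ± 0.0488 FPKM (SD, n = 3 each) and all mutant libraries below the controls. Of the 6 tested limma called 0, and 2 lay under an unadjusted p of 0.05 (limma). C1qb stood at 4.91 ± 0.458 and 6.05 ± 0.575 FPKM and Tyrobp at 3.23 ± 0.768 and 4.12 ± 1.84 FPKM (SD, n = 3 each). Cd97 and Gpr56 overlapped between the groups, and the part of white cells in their levels was not tested.

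The latrophilins Lphn1 and Lphn2, receptors for teneurins and FLRT proteins at cell contacts, had the highest log2 differences of the 8, at 0.25 and 0.24, and neither was called. Lphn1, now Adgrl1 (chromosome 8 from 83900105 to 83941954), read 8.70, 19.0 and 18.1 FPKM in controls against 15.9, 20.0 and 16.7 FPKM in mutants. Control replicate 1 was the lowest by far, at 0.469 of the mean of the other controls, and the log2 difference was -0.086 without it (limma adjusted p = 0.861, against 0.869 with all libraries). Over all genes tested 12.8% lay under 0.7 of that mean in control replicate 1, and Cd97, at 0.588, was the other member below that limit. Lphn2, now Adgrl2 (chromosome 3 from 148815583 to 148990555), read 14.0, 17.8 and 18.1 FPKM in controls against 21.3, 17.4 and 20.8 FPKM in mutants. Mutant replicate 2 lay among the controls, the other mutant libraries lay above them, and the log2 difference kept its direction in each of 16 alternatives, between 0.08 and 0.33 (limma adjusted p = 0.789, and 0.493 or more in the alternatives).

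By level per transcript length, the order in controls was Gpr124 (30.3 ± 2.27 FPKM), Lphn2 (16.7 ± 2.28), Gpr126, Lphn1 (15.3 ± 5.70), Cd97 (12.8 ± 3.57), Gpr116 (6.91 ± 0.702), Gpr56 and Eltd1 (SD, n = 3 each). Gpr124 did not overlap with the gene after it, while Lphn2, Gpr126, Lphn1 and Cd97 followed each other with overlapping libraries. Cd97 and Gpr116 did not overlap, nor did Gpr116 and Gpr56, while Gpr56 and Eltd1 did. In mutants Gpr126 went from the third place to the sixth, between Gpr116 (7.43 ± 1.25 FPKM) and Gpr56, and overlapped with both. The 8 genes together summed to 106.6 ± 11.5 FPKM in controls and 99.5 ± 2.64 FPKM in mutants. Gpr126 supplied 15.9%, 14.9% and 14.1% of that sum in control replicates 1, 2 and 3 and 6.39%, 7.91% and 8.05% in the mutants. Without Gpr126 the sums were 90.7 ± 10.4 and 92.1 ± 2.81 FPKM, a difference within the spread.

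The rest of the receptor family was taken as 22 further genes by name, all of which the table lists. Of these, 5 passed the minimum level, and limma called 0 of the 5, with 0 at an unadjusted p under 0.05. Gpr125, the close relative of Gpr124, stood at 18.6 ± 1.11 and 19.6 ± 1.40 FPKM (SD, n = 3 each), the highest of the 22. Bai2, a receptor better known from brain, was at 5.68 ± 2.02 and 5.78 ± 1.05 FPKM, and the third latrophilin, Lphn3, at 4.54 ± 1.70 and 4.96 ± 0.060 FPKM. The cadherin-type receptors Celsr1 and Celsr2, which act in planar cell polarity, were at 2.24 ± 0.320 and 2.05 ± 0.0942 FPKM and at 1.71 ± 0.650 and 1.90 ± 0.466 FPKM. Their log2 differences lay between -0.08 and 0.16, and control replicate 1 was the lowest control library in each of the 5. The other 17 genes lay under a mean of 1 FPKM, and no library reached 1 FPKM for any of them. Among them, and outside the rule for named genes, the macrophage receptor Emr1, better known as F4/80, had means of 0.582 and 0.785 FPKM in controls and mutants, and Gpr112 was listed at 0 in all libraries. Over the 13 receptors tested, the median log2 difference was 0.06, against -0.01 over all genes.

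**Figure D3:**
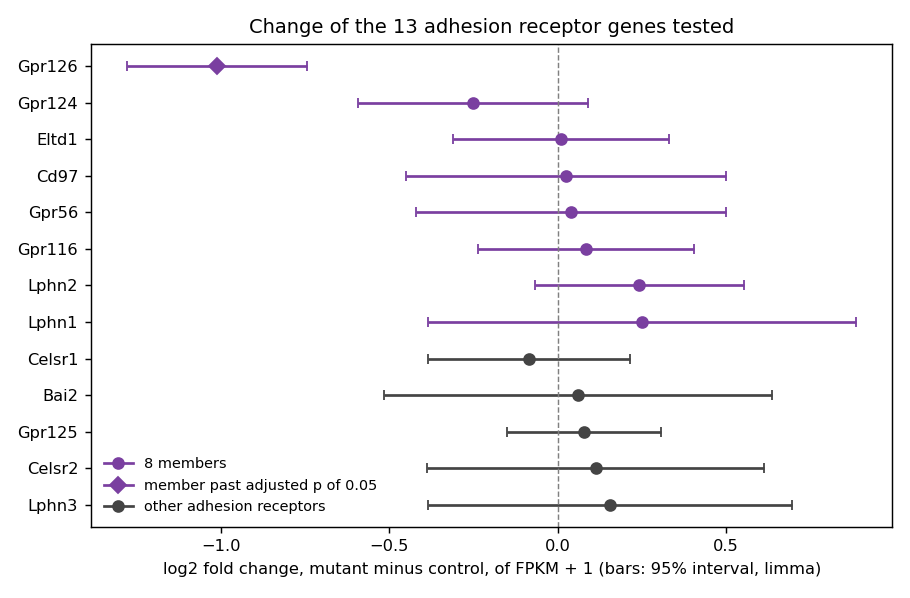
Log2 fold change (horizontal axis, mutant minus control, of FPKM + 1) of the 13 adhesion receptor genes that passed the minimum level, with 95% intervals from limma. The interval of Gpr126 runs from -1.28 to -0.74, and the intervals of the other 12 include 0.

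Ligands and partners of the receptors, a list of 35 genes of which 24 passed the minimum, held 0 genes past the threshold, with a median log2 difference of -0.01. At an unadjusted p under 0.05 there were 6 lower and 1 higher (limma), against 4.37% and 2.31% of all genes. Among the partners of Gpr126, type IV collagen is made of several chains. None of its chain genes was called, and differences between the chains were not tested. The basement membrane collagen gene Col4a1 stood at 85.8 ± 10.8 and 64.3 ± 6.82 FPKM in controls and mutants, and the prion protein gene Prnp at 37.2 ± 0.887 and 31.7 ± 1.13 FPKM (SD, n = 3 each). In both, all mutant libraries lay below all controls, with log2 differences of -0.41 and -0.22 (limma adjusted p = 0.652 and 0.742). The chain gene Col4a2, which like the next pair is outside the rule for named genes, was also lower in all mutant libraries (60.9 ± 7.83 and 47.6 ± 3.21 FPKM, limma adjusted p = 0.713). Col4a5 (22.0 ± 3.71 and 22.1 ± 2.75 FPKM) and Col4a6 (7.16 ± 1.15 and 7.04 ± 0.795 FPKM) overlapped between the groups (SD, n = 3 each), and Col4a3 and Col4a4 were under the minimum level. The laminin gene Lama2, at 4.27 ± 1.46 and 4.49 ± 0.628 FPKM, overlapped.

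Of the partners of Gpr56, the transglutaminase gene Tgm2 lay lower in each mutant library than in any control. Its libraries read 94.4, 90.4 and 87.3 FPKM in controls against 56.5, 70.7 and 69.3 FPKM in mutants, with a log2 difference of -0.47 ± 0.12 (SE, limma adjusted p = 0.415). Col3a1, the type III collagen gene, overlapped at 131 ± 24.2 and 115 ± 13.8 FPKM (SD, n = 3 each). The Cd97 partner Thy1 was near the minimum level, at 1.62 ± 0.189 and 0.852 ± 0.0720 FPKM, with all mutants below all controls (log2 difference -0.50, limma adjusted p = 0.558), whereas Cd55, at 5.66 ± 1.80 and 5.38 ± 1.10 FPKM, overlapped. Reck, the partner of Gpr124, overlapped at 7.57 ± 0.924 and 8.49 ± 1.73 FPKM.

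For the latrophilins, the ligand gene Flrt2 read 14.0, 17.4 and 17.3 FPKM in controls against 22.4, 18.0 and 21.7 FPKM in mutants. Its mutant libraries lay above all controls, with a log2 difference of 0.33 (limma adjusted p = 0.742). Flrt3 stood at 16.0 ± 2.03 and 18.1 ± 1.07 FPKM, Tenm3 at 9.32 ± 1.96 and 11.3 ± 2.48 FPKM and Tenm4 at 3.15 ± 0.662 and 3.76 ± 0.650 FPKM (SD, n = 3 each), and the libraries of these 3 overlapped. The log2 differences of Tenm3 and Tenm4 were 0.26 and 0.20 with all libraries and -0.065 and -0.019 within replicates 2 and 3.

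Of 30 genes for signalling downstream of such receptors, 28 passed the minimum and 0 were called (limma), with a median log2 difference of -0.06. At an unadjusted p under 0.05 there were 1 lower and 0 higher (limma), against 4.37% and 2.31% of all genes tested. All mutant libraries lay below all controls in 3 of the 28, against 8.17% of all genes tested. The gene under that unadjusted p was Adcy4, an adenylyl cyclase found in endothelium, named after its values were seen. Its libraries read 7.08, 8.78 and 8.20 FPKM in controls against 5.60, 4.90 and 5.19 FPKM in mutants, which did not overlap, with a log2 difference of -0.53 ± 0.11 (SE, limma adjusted p = 0.261). The stimulatory G protein gene Gnas, through which Gpr126 raises cyclic AMP, also outside the rule, read 90.2, 99.2 and 124 FPKM in controls against 103, 107 and 113 FPKM in mutants, which overlapped.

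**Figure D4:**
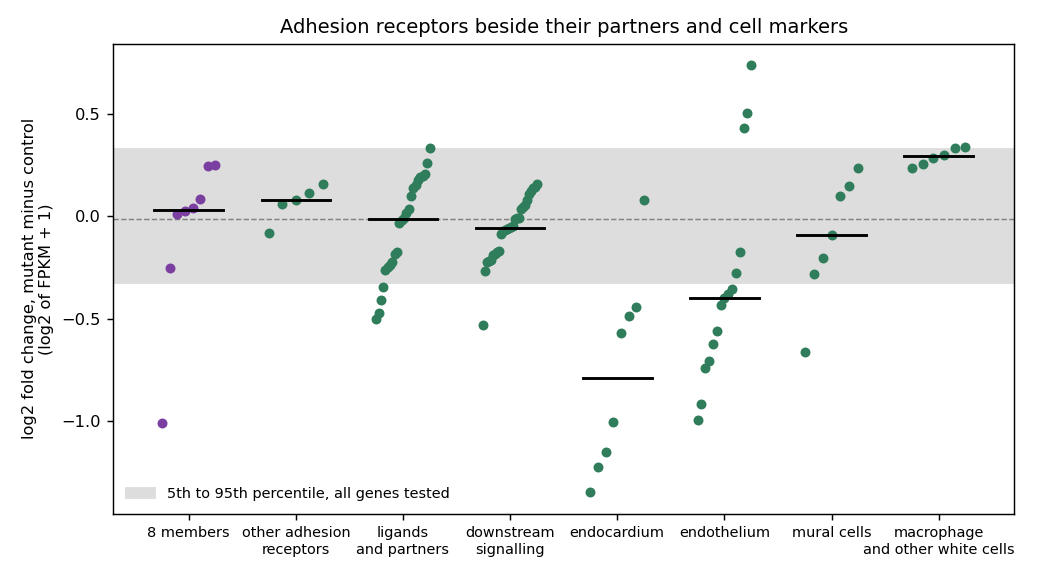
Log2 fold change (vertical axis, mutant minus control, of FPKM + 1) of each tested gene in the receptor, partner and marker lists (1 point a gene, black lines the medians), over a grey band from the 5th to the 95th percentile of all genes tested (-0.33 to 0.33). Of the 8 receptors Gpr126 alone lies below the band, among the values of the endocardial list, whose median is -0.79.

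Most endothelial and endocardial markers had log2 differences below 0, and 5 of 23 were called lower. Of 8 endocardial markers 4 were called lower and 4 were not past the threshold (median log2 difference -0.79), and of 15 general endothelial markers 1 was called lower and 14 were not past it (median -0.40), beside 0.123% of all genes called lower. Others went the opposite way without a call. Robo4, a guidance receptor of endothelium, read 0.952, 1.80 and 1.75 FPKM in controls against 2.69, 3.39 and 3.30 FPKM in mutants. Sox17, a transcription factor of arterial endothelium, was at 0.804 ± 0.0861 and 1.56 ± 0.253 FPKM, and both genes were higher in all mutant libraries (SD, n = 3 each, limma adjusted p = 0.374 for Robo4 and 0.597 for Sox17). Cldn5 and Emcn had log2 differences of 0.43 and 0.08, with overlapping libraries. The summed endocardial markers lay between 241 and 269 FPKM in controls and between 148 and 177 FPKM in mutants, and the endothelial ones between 331 and 386 and between 247 and 274 FPKM. The most abundant were Plvap (60.7 ± 6.67 and 25.4 ± 2.51 FPKM) and Emcn (45.6 ± 2.21 and 48.6 ± 7.95 FPKM) of the endocardial list, and Eng (71.0 ± 10.3 and 47.9 ± 7.03 FPKM) and Egfl7 (62.2 ± 3.61 and 51.4 ± 7.14 FPKM) of the endothelial list (SD, n = 3 each). The endocardial marker Nfatc1 (15.1 ± 0.923 and 10.8 ± 0.959 FPKM, SD, n = 3 each) is also the gene from which the Cre of the mutants is driven. Any part of the Cre in its level was not tested. How far the share of endothelial cells sets the receptor levels was not tested.

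Within each library Gpr126 was set against every one of these markers as a ratio. Of the 15 endothelial genes, 13 gave a ratio that was lower in all mutant libraries than in any control and 2 gave overlapping ratios, and the median of the mutant over the control mean ratio was 0.621. The ratio to Pecam1, an adhesion molecule of endothelium, was 0.392, 0.388 and 0.388 in the controls and 0.222, 0.227 and 0.262 in the mutants. That to the junction gene Cdh5 was 0.317 ± 0.0149 and 0.244 ± 0.0132, and that to the VEGF receptor gene Kdr 0.664 ± 0.0373 and 0.413 ± 0.0257 (SD, n = 3 each). The 2 that overlapped were Mmrn2, at 1.15, 1.14 and 1.05 in the controls and 1.04, 1.13 and 1.15 in the mutants, and Vwf, at 1.41, 1.53 and 1.48 and at 0.961, 1.55 and 1.89. Of the 8 endocardial genes, 3 gave a ratio lower in all mutant libraries (Nfatc1, Emcn and Cgnl1) and 5 overlapped (Npr3, Plvap, Tmem100, Ednrb and Klf2). The ratio to Npr3 was 0.596 ± 0.0465 and 0.646 ± 0.0822, that to Plvap 0.264 ± 0.0356 and 0.295 ± 0.0566, and that to Emcn 0.349 ± 0.0129 and 0.153 ± 0.00986. Gpr126 was known to be lower, and a gene that fell more than a marker lies lower against it. The share of all genes with such ratios was not counted, so these counts show no trait of Gpr126. The ratios were made after values were seen and are given with no test.

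**Figure D5:**
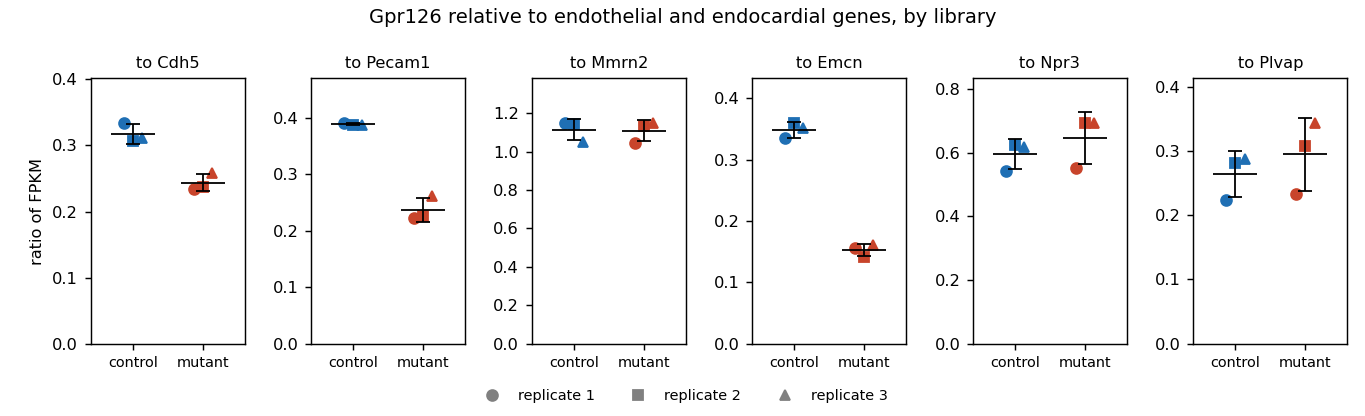
Ratio of Gpr126 FPKM to that of 6 of the 23 endothelial or endocardial genes, picked to show both outcomes, within each library (vertical axes, each from 0). Points are libraries, shapes replicate numbers, and black lines and bars the mean and SD of 3. The control and mutant points are apart for Cdh5, Pecam1 and Emcn and overlap for Mmrn2, Npr3 and Plvap.

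Most of the same markers were lower in mutants, so a gene that keeps its own level lies higher against them. The 7 members other than Gpr126 did so in their group means, endothelial or not. Relative to the median log2(FPKM + 1) of the 15 endothelial markers in the same library, Gpr126 lay at 0.08, 0.18 and 0.06 in the controls and at -0.73, -0.32 and -0.34 in the mutants. Gpr116 lay at -1.08, -0.98 and -0.90 in the controls and at -0.80, -0.36 and -0.23 in the mutants, and Eltd1 at -1.79, -1.98 and -1.53 and at -1.50, -1.30 and -1.16. Relative to these markers both were higher in every mutant library than in any control, by 0.52 and 0.45 on the log2 scale, and so were Lphn1 and Lphn2, by 0.69 and 0.68, while Gpr56, Gpr124 and Cd97 overlapped. Of the 15 markers themselves, 12 had log2 differences below 0. Relative to the median of the 8 endocardial markers, Gpr126 differed by 0.06 between the group means, with overlapping libraries. The other 7 members lay higher in all mutants, by 0.82 (Gpr124) to 1.32 (Lphn1). Of these 8 markers, 7 had log2 differences below 0 (median -0.79). The share of all genes that lay higher in this way was not counted, so these counts show no trait of the members.

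Among 8758 genes at a mean of 5 FPKM or above, those whose log2 values followed Gpr126 most closely over the 6 libraries were Col13a1, a transmembrane collagen gene (Pearson r = 0.997), Lgals9, a galectin gene (r = 0.997), and Mmrn2, an endothelial matrix gene (r = 0.994). All 3 were called lower, with log2 differences of -1.01, -1.06 and -0.99 against the -1.01 of Gpr126 (limma adjusted p = 0.0278, 0.0348 and 0.0171), though Col13a1 and Lgals9 lost the call without any 1 library and Mmrn2 in 5 of 6 such fits. The points are 6 libraries in 2 groups, so that any gene with a like group difference scores high. For Eltd1 the closest were Med10 (r = 0.983), Crbn (0.958) and Cep19 (0.939), and for Gpr116 Arid4a (0.997), AU019823 (0.993) and Kif23 (0.993), of which none was called. In the 3 genes closest to Gpr116, as in Gpr116, replicate 1 was the lowest library of both groups. Each set is the top 3 of 8758 genes over 6 libraries, so a high r comes with the selection and was not tested.

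In further marker lists, no epicardial (7 genes, led by Upk3b and Krt19), cushion mesenchyme (7, Postn and Twist1) or hepatocyte (4 of 5, Afp and Alb) gene was called. At an unadjusted p under 0.05 there was 1 epicardial and 1 cushion gene, both higher, and 0 hepatocyte genes (limma). The hepatocyte markers summed to 20.2 to 76.8 FPKM in controls and to 3.995, 213 and 0.883 FPKM in mutant replicates 1, 2 and 3. In the erythroid list, the embryonic globin genes Hbb-y and Hba-x were listed at 0 in all controls and made up 5.40% to 7.33% of the FPKM sum in mutants. Scaling each library to the same upper quartile put the Gpr126 log2 difference at -0.98 (limma adjusted p = 0.0244).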

How the data were processed

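RNA of whole embryonic hearts was sequenced in 6 libraries, 3 per genotype, grouped by their titles. The authors deposited 1 table of FPKM per gene and library. The submitters' processing notes name TopHat2 2.0.9, Cufflinks 2.2.1, Cuffdiff and HTSeq, in no order, and mm10; the strand setting and the annotation release are unknown. The members and lists were chosen with earlier results of these data known. The test was limma 3.58.1 (R 4.3.3) with intensity trend on log2(FPKM + 1) over genes averaging 1 FPKM or more, with Benjamini-Hochberg adjustment over all of them and a threshold of 0.05. FPKM + 1 understates changes of low genes. On simulated data with 200 genes changed, 74% of log2 changes of 1 and 95% of changes of 2 were recovered among 12988 genes. In these 2 runs 148 and 190 changed genes were recovered, and 15 and 18 unchanged genes were called falsely. The data gave 23 calls, far fewer than the 200 genes changed in the simulation, so its recovery may not carry over. The simulated noise was independent between libraries, without the pairing or the replicate 1 difference of the data. Named were all 8 members, further receptors above the minimum, 12 listed partners, the 2 most abundant genes of each marker list (1 list is not reported here), Tek, and the 3 genes most like Gpr126, Eltd1 and Gpr116, with predicted and clone-named genes left out. Same-numbered libraries deviated together (r = 0.267, 0.109 and 0.439 for replicates 1, 2 and 3 over 12805 genes). Pairs of unlike number had r from -0.391 to 0.0953, the highest close to that of replicate 2. The test as reported carried no replicate block. The replicate number was taken to pair libraries only in the alternative with the block, from the data and the labels' numbers alone. Positions come from GENCODE M21 (GRCm38, the assembly of mm10) and start sites from RefSeq (GRCm38.p6). Alternatives changed the pseudocount (0.1), the filter (none, 5 FPKM), the scaling, the trend, the block, the batch, a Y-linked covariate and each library in turn.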

Additional observations from a re-analysis of the deposited data

How the results depend on the processing

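The 16 alternatives gave 473 values for 30 named genes, of which 397 kept direction and side of the threshold, 37 lost the call and 39 changed sign. Of all genes tested 16 were lower, and this became 7 with no filter, 8 within replicates 2 and 3, 1 with the Y-linked term and 4 to 9 without 1 library. The 7 higher genes became 6 to 11 without 1 library. The receptors called lower went from 1 to 0 with no filter, within replicates 2 and 3, with the Y-linked term and without each library in turn (0 to 0). With the replicate block, the Gpr126 adjusted p was 0.0311 (limma), at the same log2 difference of -1.01, and the pairing changed no receptor's call. Quantile normalization put Eltd1 at -0.0026. With the Y-linked term the log2 differences were -0.25 for Eltd1, -0.10 for Gpr116, -0.21 for Cd97, -0.072 for Lphn1, -0.13 for Lphn3, -0.12 for Bai2 and -0.19 for Lama2. Within replicates 2 and 3 they were -0.12 for Cd97, -0.022 for Lphn1, -0.13 for Lphn3, -0.18 for Celsr2, -0.33 for Bai2, -0.020 for Gpr125, -0.10 for Lama2 and Reck, -0.065 for Tenm3 and -0.019 for Tenm4. Without 1 library the range was -0.072 to 0.13 for Eltd1, -0.13 to 0.18 for Gpr56, -0.0027 to 0.21 for Gpr116, -0.21 to 0.17 for Cd97, -0.086 to 0.44 for Lphn1, -0.13 to 0.31 for Lphn3, -0.059 to 0.29 for Celsr2, -0.22 to 0.20 for Bai2, -0.16 to 0.23 for Lama2, -0.0072 to 0.21 for Reck and -0.28 to 0.094 for Cd55. None of these genes was past the threshold in any fit. The cause of these changes was not tested. Depth is unknown, so the error of low values cannot be given.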
